A study of Mus musculus with 28 samples.

Results

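The 7 transcripts of the olfactory sensory neuron, Omp, S100a5, Gng13, Cnga2, Adcy3, Gnal and Stoml3, were followed through 3 dissected mouse brains. They are 7 of the 20660 gene symbols that could be named on the array. They were chosen on their known role in this neuron and on earlier readings at the olfactory bulb end of the coronal series, so the coronal values below describe the choice and carry no test. The brains came from male C57BL/6J mice at 3 weeks after birth, 1 mouse for each plane of section, with no treatment, no transgene and no altered allele. Whole frozen brains were cut along 1 body axis and consecutive sections were pooled, which gave 12 coronal, 6 horizontal and 10 sagittal fractions. Each fraction was hybridised to a single 1-colour array, so no position has a replicate and the mouse and the plane cannot be told apart. The label of coronal fraction 12 also names a following fraction, so it may be the thicker of the series.

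Olfactory sensory neurons sit in the lining of the nose, outside the brain, and send unbranched axons into the outermost layer of the olfactory bulb, where they meet mitral, tufted and periglomerular cells in glomeruli. An odorant receptor on their cilia activates the G protein alpha subunit Golf, which Gnal encodes, with a beta and a gamma subunit, of which Gng13 encodes 1. Golf drives adenylyl cyclase 3, the product of Adcy3, and the cAMP it makes opens a channel with Cnga2 as a subunit. Omp is the cytoplasmic olfactory marker protein of mature sensory neurons, S100a5 a calcium-binding protein, and Stoml3 a stomatin-like membrane protein of these cells. Gnal is also known as the main stimulatory alpha subunit of striatal projection neurons, and Adcy3 is found in the primary cilia of neurons throughout the brain.

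A level here is log2 of the background-subtracted signal minus the 75th percentile of its array, so 0 is the 75th percentile, and levels of different probes are not set against each other. The 75th percentile lay between 135 and 574 signal units, 24822 to 34240 probes per array were well above background, and the SD of repeat spots of 1 probe was 0.055 to 0.080 log2. The arrays lay on 4 slides. Coronal fractions 9 and 10 shared slide 2, fractions 11 and 12 shared slide 3, sagittal fractions 1 to 4 lay on slide 4 and sagittal fractions 5 to 10 on slide 3, while the 6 horizontal fractions shared slide 1. Since each sample is a mixture of cells, fewer cells of a type and less RNA per cell cannot be told apart.

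Promoters are shown for 4 members because they set the transcripts high at the bulb end (S100a5 and Stoml3) beside a transcript with a level coronal profile (Cnga2) and a transcript high at both ends of the brain (Gng13). They span 250 bases before to 50 after the start of the gene on the plus strand of GRCm38.p6, from a table of RefSeq promoters in which 5 of the 7 members were matched, 7 sequences in all, and Omp and Gnal were not. Capitals mark matches to CCCNNGGG, the core of the site known to be bound by factors of the EBF family, which reads the same on both strands. S100a5 lies at chr3:90608272-90608571, Stoml3 at chr3:53488457-53488756, Cnga2 at chrX:71991599-71991898 and the first promoter of Gng13 at chr17:25716922-25717221.
S100a5: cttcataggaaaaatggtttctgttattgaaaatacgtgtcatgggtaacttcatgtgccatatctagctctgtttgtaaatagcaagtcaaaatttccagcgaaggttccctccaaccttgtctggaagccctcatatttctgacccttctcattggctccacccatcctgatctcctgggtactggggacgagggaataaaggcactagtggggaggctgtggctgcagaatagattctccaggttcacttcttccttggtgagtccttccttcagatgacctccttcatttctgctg
Stoml3: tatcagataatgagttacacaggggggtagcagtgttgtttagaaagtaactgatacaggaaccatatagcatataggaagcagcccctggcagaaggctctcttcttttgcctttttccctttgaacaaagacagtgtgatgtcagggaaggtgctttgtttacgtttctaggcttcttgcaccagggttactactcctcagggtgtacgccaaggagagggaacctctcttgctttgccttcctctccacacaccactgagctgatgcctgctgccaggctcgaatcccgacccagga
Cnga2: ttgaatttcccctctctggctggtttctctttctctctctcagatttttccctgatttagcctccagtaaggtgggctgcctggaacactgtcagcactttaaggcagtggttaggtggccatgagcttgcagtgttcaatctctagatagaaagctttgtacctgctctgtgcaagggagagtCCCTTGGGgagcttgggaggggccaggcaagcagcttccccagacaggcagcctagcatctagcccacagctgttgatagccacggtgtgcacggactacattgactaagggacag
Gng13: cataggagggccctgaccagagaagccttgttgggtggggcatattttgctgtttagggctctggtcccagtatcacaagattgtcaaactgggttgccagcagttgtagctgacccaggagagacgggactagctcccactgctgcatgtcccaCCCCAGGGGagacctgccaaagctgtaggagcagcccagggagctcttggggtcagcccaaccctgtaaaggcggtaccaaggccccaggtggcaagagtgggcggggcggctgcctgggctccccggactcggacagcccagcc
The core was found in 2 of the 7 member promoters, at -66 from the start of the gene in Cnga2 (CCCTTGGG) and, as 2 overlapping matches starting at -95, in the first Gng13 promoter, and in 13.7% of all 32851 promoters of the table. The LIM-homeodomain cores TAATTA and TAATTG, searched on both strands, were in none of the 7, and in 5.29% and 8.00% of all promoters. The letters say nothing on whether a factor binds there, and S100a5 and Stoml3 held none of the 3 motifs in this window.

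Omp, S100a5 and Stoml3 were low through most of the coronal series and far brighter in its last fractions, and the other 4 members were not. Omp kept to a plateau over fractions 1 to 9, with a lowest level of -2.49, a median of -1.69 and a highest level of -0.41. It then read 1.39 in fraction 10, 7.02 in fraction 11 and 7.04 in fraction 12. Fraction 12 was thus 9.53 log2 above fraction 9, a 740.0-fold difference (8.49 to 9.86 log2 under the 5 scalings tried). Every fraction of the plateau was well above background, and its highest level was that of fraction 1, at the opposite end of the brain.

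S100a5 followed a like course. Its plateau over fractions 1 to 9 ran from -2.49 to -1.84 with a median of -2.02. The level was 2.86 in fraction 10, 7.61 in fraction 11 and 7.17 in fraction 12, with its highest level in fraction 11. The difference of fraction 12 from fraction 9 was 9.19 log2, or 583-fold (8.49 to 9.52 log2 under the 5 scalings).

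Stoml3 was mostly too dim to measure outside the bulb end. It was well above background in coronal fractions 6, 11 and 12, and in 11 of the 28 fractions in all. Its levels in fractions 11 and 12 were 1.34 and 1.53, against readings between -6.93 and -4.44 in fractions 1 to 9 that were not well above background with the exception of fraction 6, at -4.50. Fraction 12 was at least 48.2-fold above fraction 9, where the spot was not well above background. On the readings as they stand the difference was 7.76 log2, and it was 4.20 with normexp, the lowest of the 5 scalings and under that bound.

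Gng13 was high at both ends of the brain and low between them. It read 8.01, 8.26 and 7.77 in coronal fractions 1, 2 and 3, had its lowest level of 5.49 in fraction 6, and read 6.07, 7.85, 8.04 and 7.51 in fractions 9 to 12. The difference of fraction 12 from fraction 9 was 1.44 log2, which 4.07% of probes exceeded. Its highest coronal fraction was fraction 2, away from the bulb.

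Cnga2 did not vary with coronal position by more than 0.42 log2. Its 12 levels lay between -1.36 and -0.94 with a median of -1.20, and all were well above background. Fraction 12 differed from fraction 9 by -0.26 log2 (-1.24 against -0.99), and by 0.08 when levels were scaled to the array median.

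Adcy3 had a coronal range of 0.91 log2, wider than that of Cnga2. Its levels lay between -1.81 in fractions 3 and 11 and -0.91 in fraction 5, with a median of -1.48. Fraction 12 differed from fraction 9 by -0.60 log2 (-1.69 against -1.08), and by -0.60 to -0.27 under the 5 scalings tried.

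Gnal ran opposite to Omp at this end. It read 3.78 in fraction 5 and 5.29 in fraction 8, then 5.24, 4.42, 3.20 and 2.87 in fractions 9 to 12, the last being its lowest level of the series. The second Gnal probe had the same shape, with a correlation of 0.91 over the 12 fractions and a difference of -2.08 against -2.37 log2.

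**Figure D1:**
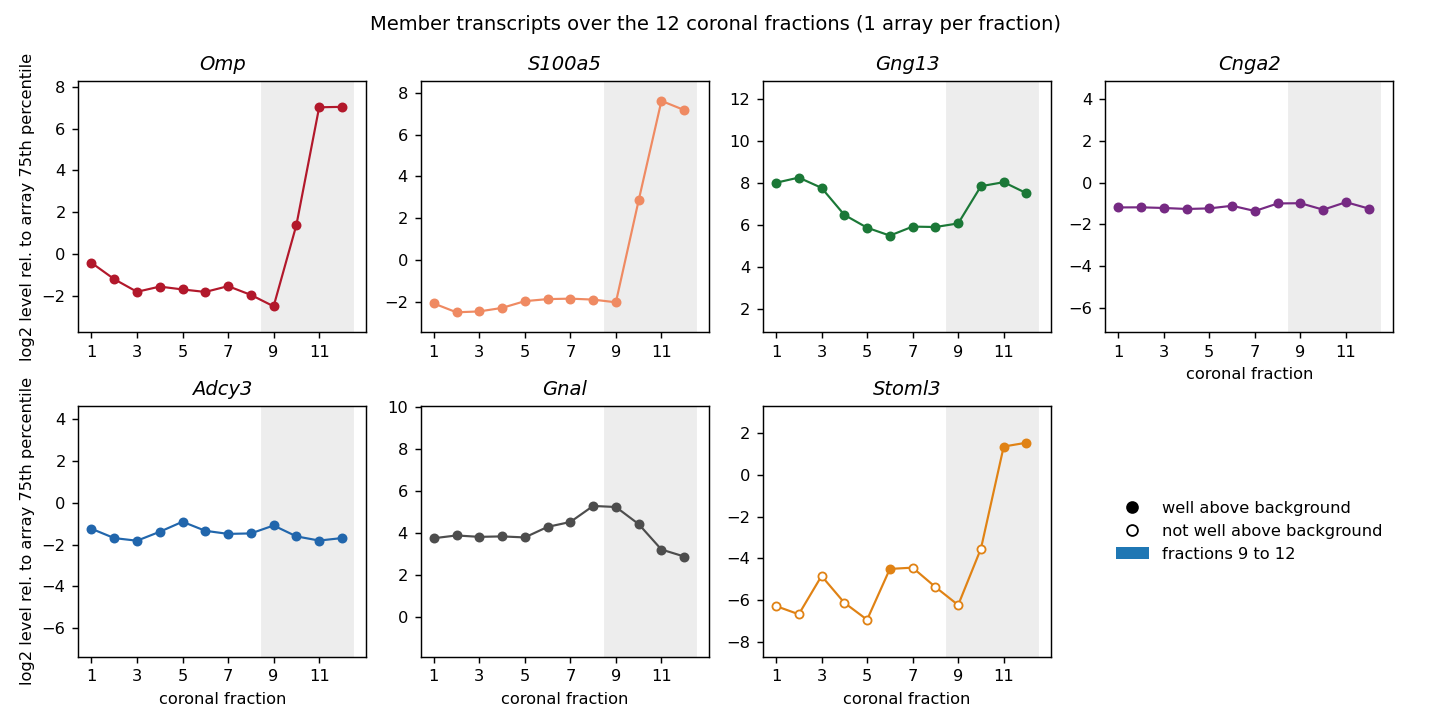
Level of each member (log2 relative to the 75th percentile of the array; every panel spans 12 log2) over the 12 coronal fractions, 1 array each, with open points where the spot was not well above background and fractions 9 to 12 shaded. Omp and S100a5 differ by 9.53 and 9.19 log2 between fractions 9 and 12, and Stoml3 is at least 48.2-fold higher in 12. Gng13 is high at both ends, Cnga2 and Adcy3 range over 0.42 and 0.91 log2, and Gnal differs by -2.37 between fractions 9 and 12.

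Over fractions 9 to 12 the median of the 7 differences was 1.44 log2, with 4 members over 1 log2 higher in fraction 12, 1 over 1 log2 lower and 2 between. Among all 32364 probes that passed the filter on dim values the median was -0.08, the 95th percentile 1.29 and the largest reading 10.17, that of Ms4a15, which was not well above background in fraction 9, and 7.94% were over 1 log2 higher and 13.2% over 1 log2 lower. With the array median as the scale the median of all probes moved by 0.33, and with quantile normalization by 0.12. The share of higher probes among those past 1 log2 was 37.5% with the 75th percentile, 63.1% with the array median and 49.2% with quantile normalization, while 4 members were higher and 1 lower under each of the 5 scalings. Because the coronal bulb end chose the members, nothing is read from their count against these shares.

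**Figure D2:**
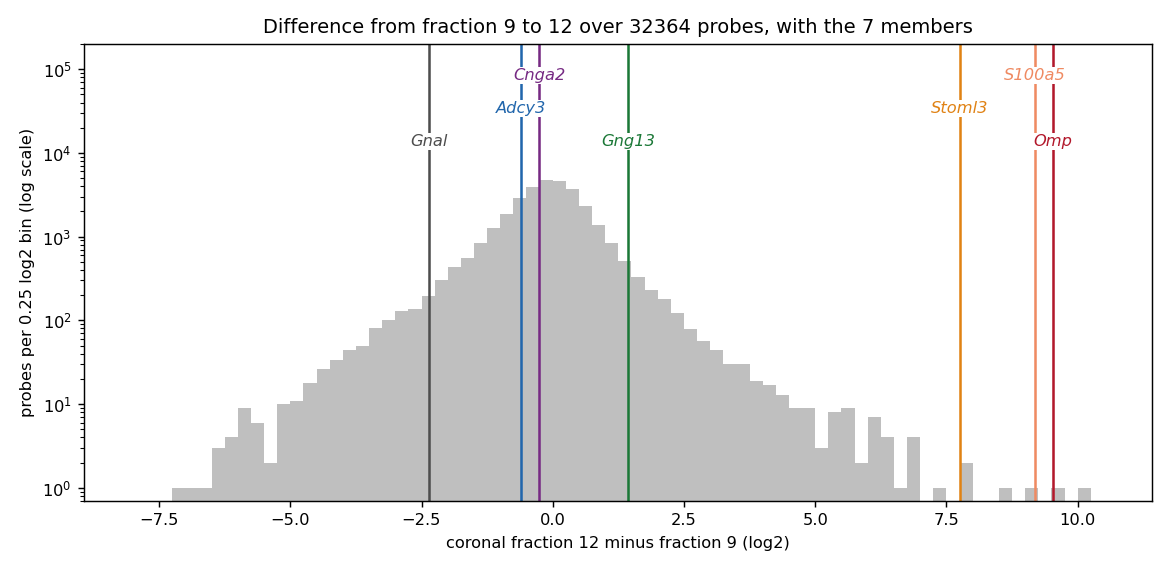
Number of probes (log scale, bins of 0.25 log2) by the difference of coronal fraction 12 from fraction 9 (log2), with a coloured line for each member. Omp, S100a5 and Stoml3 lie in the far right tail, Gng13 at 1.44 on the right shoulder, Cnga2 at -0.26 and Adcy3 at -0.60 in the body, and Gnal at -2.37 in the left tail.

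Of the 7 genes that define the mature sensory neuron here (Omp, Cnga2, Cnga4, Gnal, Adcy3, Rtp1 and Stoml3), 2 were over 1 log2 higher in fraction 12, 4 were within 1 log2 and 1 was lower. The 4 include Rtp1 on its reading alone, since its spot was not well above background in fraction 12 and it was at least 1.73-fold lower there. Most genes that define this neuron thus lacked the bulb-end profile of Omp, and since that profile helped choose the members it is no support for their name.

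The difference was not evenly spread over the 4 fractions. The successive steps of Omp were 3.88 log2 from fraction 9 to 10, 5.63 from 10 to 11 and 0.02 from 11 to 12. Those of S100a5 were 4.87, 4.75 and -0.44. Stoml3 was not well above background in fraction 9 or 10, and its step from 11 to 12 was 0.18. The middle step crosses from slide 2 to slide 3, so slide and position cannot be told apart in it. The first step, within slide 2, was over 1 log2 in Omp, S100a5 and Gng13 and in 9.7% of all probes. The last step, within slide 3, was over 1 log2 in none of the members and in 2.57% of all probes.

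Genes of the cells that sensory axons contact were higher in fraction 12 than in 11, where Omp was level. All 6 mitral and tufted cell genes were higher in fraction 12, by a median of 1.19 log2, as were all 7 bulb interneuron genes, by a median of 0.41. Uncx counts on its reading alone, since its -4.24 in fraction 11 was under the lowest level well above background there (-3.38). Pbx3 and Calb2 rose by 0.07 and 0.09 log2, near the SD of repeat spots. Of all probes, 42.8% were higher in fraction 12 than in 11, and 3 of the 7 members were. The share of all probes was 64.0% with the array median, 52.6% with quantile normalization and 31.7% with normexp. Under each of the 5 scalings the medians of both lists exceeded the step of each member, with the mitral median between 1.14 and 1.48, the interneuron median between 0.41 and 0.70, Omp between 0.02 and 0.51, Stoml3 between 0.18 and 0.47 and S100a5 between -0.44 and 0.08, positive with quantile normalization, and with normexp 5 of the 6 mitral genes were higher. Repeat spots of 1 probe had an SD of 0.068 log2 in coronal fraction 11 and 0.061 in fraction 12, which covers spot error alone. These are single arrays of 1 brain, and the difference between the groups of genes was not tested.

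The horizontal series came from another mouse, and since earlier results of all 3 planes were known when the members were chosen, it is not independent support. Omp read between -1.002 in fraction 1 and 3.14 in fraction 3, with a median of 0.32, and was 2.38 in fraction 4. S100a5 likewise peaked in fraction 3 at 3.46, was 2.71 in fraction 4 and lowest in fraction 5 at -1.15. Stoml3 was well above background in fractions 3 and 4 alone, at -2.91 and -3.39. Fractions 3 and 4 thus stood above the other 4 for all 3 transcripts.

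Cnga2 also peaked in horizontal fraction 3, at -1.21, with its lowest level of -3.09 in fraction 1, a range it did not show in the coronal series. Gnal was highest in fraction 4 (4.55) and lowest in fraction 1 (3.21). Gng13 was highest in fraction 2 (7.18) and lowest in fraction 5 (5.78), and Adcy3 highest in fraction 2 (-0.14) and lowest in fraction 6 (-1.83). The highest level lay in fraction 3 or 4 for 5 of the 7 members and for 22.8% of all probes.

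None of the 7 passed limma's F-test of a smooth curve over the 6 horizontal fractions after Benjamini-Hochberg adjustment over all 32364 probes. Of these probes 15.8% passed. In the same test 2 of the 7 members had an unadjusted p under 0.05, as had 11996 of the 32364 probes. The adjusted p was nearest to the threshold for Cnga2 (0.0522, fitted range 1.88 log2) and Gnal (0.0686, fitted range 1.38). It was 0.174 for Omp with a fitted range of 3.04 log2, 0.302 for S100a5 with 3.03 and 0.320 for Stoml3 with 2.17. With normexp the fitted ranges of Stoml3 and Cnga2 were 0.14 and 0.64 log2. That of Cnga2 was 2.93 log2 with the array median and 2.90 with quantile normalization. With the array median as the scale 5 members passed and 59.8% of all probes, 19347 in place of 5115, so the call depends on the scale. Without fraction 5, Omp, S100a5 and Cnga2 passed, with adjusted p of 0.0376, 0.0345 and 0.0451, where 17.8% of all probes passed. Such a p measures the spread of single fractions around a curve in 1 brain and not the spread between mice.

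**Figure D3:**
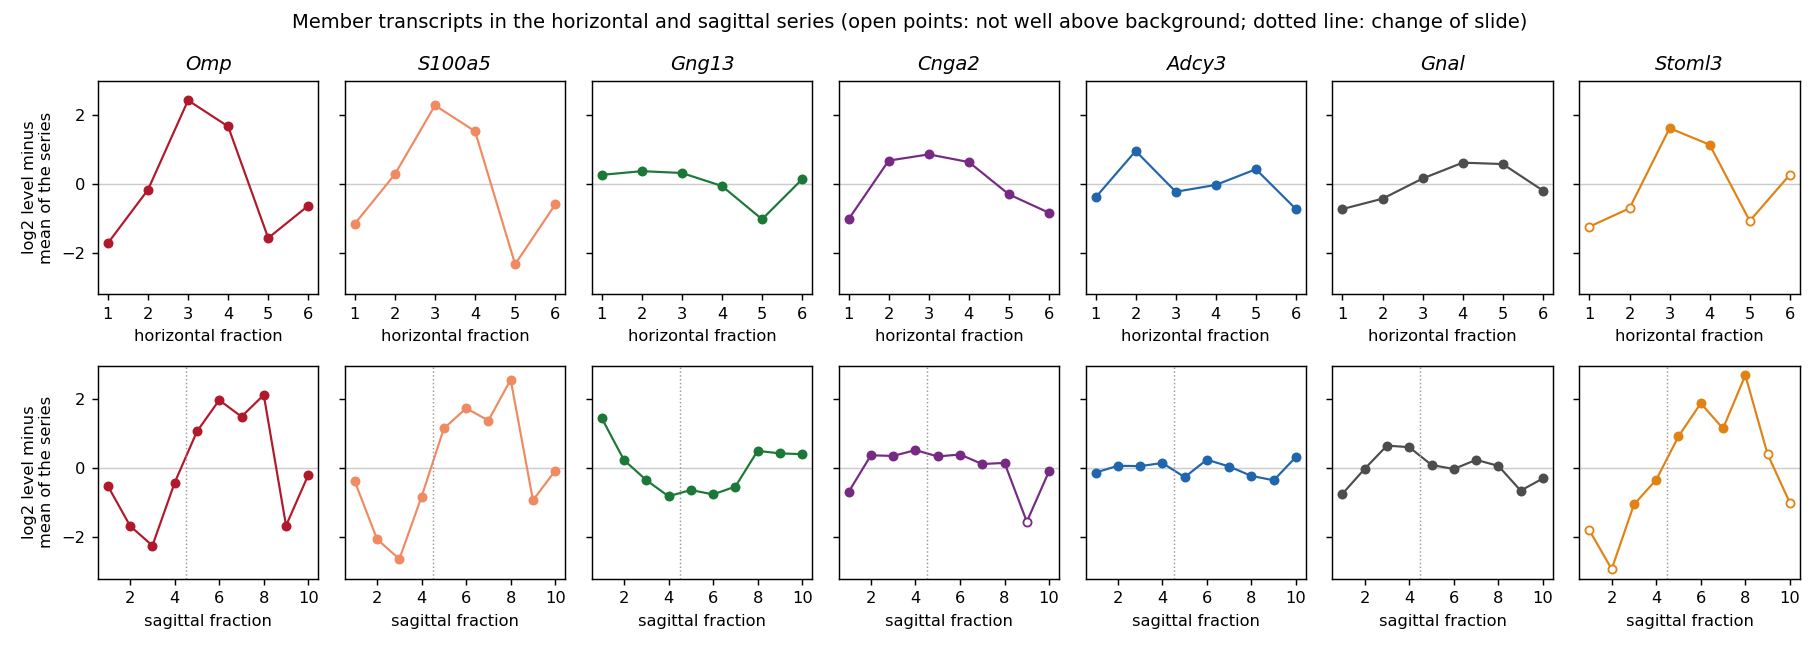
Level of each member minus its mean over the series (log2) across the 6 horizontal fractions (upper row) and the 10 sagittal fractions (lower row), 1 array each, with open points where the spot was not well above background and a dotted line where the slide changes. Omp, S100a5 and Stoml3 peak in horizontal fraction 3 and in sagittal fraction 8, whereas Gng13 is highest in sagittal fraction 1 and Gnal in sagittal fraction 3.

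Across the sagittal series Omp, S100a5 and Stoml3 shared an uneven profile with its peak off the middle. Omp read 0.78, -0.38, -0.95 and 0.88 in fractions 1 to 4 and 2.36, 3.27, 2.79 and 3.42 in fractions 5 to 8, then -0.37 and 1.10 in fractions 9 and 10. S100a5 read 1.26, -0.41, -0.99 and 0.82, then 2.80, 3.38, 3.03 and 4.21, then 0.71 and 1.57. Stoml3 was well above background in fractions 3 to 8, at -5.24, -4.53, -3.27, -2.31, -3.04 and -1.49. All 3 were thus highest in fraction 8, and Omp and S100a5 were higher in the outermost fractions, 1 and 10, than in fractions 2, 3 and 9. Sagittal fraction 1 was the dimmest array, with a 75th percentile of 135 signal units against 365 in fraction 2. Before scaling Omp was lower in fraction 1 than in fraction 2 (232 against 280 units) and S100a5 higher (324 against 274).

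Fraction 8 exceeded the mean of fractions 5 to 7 on the same slide by 0.61 log2 for Omp, 1.14 for S100a5, 1.38 for Stoml3 and 1.14 for Gng13. For Cnga2, Adcy3 and Gnal the differences were -0.13, -0.24 and -0.04, and that of Adcy3 turned to 0.05 with normexp. The mitral and tufted cell list had a median difference of -0.95 and the bulb interneuron list of -0.72, with 1 of 6 and 1 of 7 genes higher in fraction 8, against 55.5% of all probes and an all-probe median of 0.08. All 7 striatal genes were also higher in fraction 8, by a median of 1.14, so the direction was not particular to the sensory neuron transcripts. The share of all probes was 38.2% with the array median, 46.8% with quantile normalization and 68.2% with normexp, and the striatal median lay between 0.84 and 1.14. Under the 5 scalings Omp stayed between 0.37 and 0.61, S100a5 between 0.90 and 1.15 and Stoml3 between 0.92 and 1.38, Gng13 between 0.61 and 1.29, and the mitral median between -1.19 and -0.30, with 2 of the 6 genes higher under normexp. Fraction 8 was the highest sagittal fraction of 3 of the 7 members and of 5.95% of all probes. Whether the sensory neuron transcripts and the bulb cell genes differ in this was not tested, since each value is a single array.

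The mirror fraction of 8, counted from the other side, is fraction 3. Omp was 4.37 log2 higher in fraction 8 than in 3, S100a5 5.20 and Stoml3 3.75. The bulb cell genes Cdhr1, Tbx21, Sp8 and Th also read higher in fraction 8, by 2.12, 2.12, 1.73 and 1.08. Eomes, Shisa3 and Tshz1 differed by 0.57, 0.72 and 0.08, all on the readings as they stand. The other genes of the mitral and tufted cell and bulb interneuron lists are not given here, so nothing is read for those lists. Cdhr1, Shisa3, Th and Tshz1 are named here after their values were seen. Fractions 3 and 8 lay on different slides, so side and slide cannot be told apart for these values. Fractions 5 and 6, the mirror pair that shared a slide, differed by 0.91 log2 for Omp, 0.59 for S100a5 and 0.96 for Stoml3, with fraction 6 higher. Fraction 7 exceeded its mirror fraction 4 by 1.91 log2 for Omp and 2.21 for S100a5, fraction 10 exceeded fraction 1 by 0.32 and 0.31, and fraction 9 exceeded fraction 2 by 0.01 and 1.13.

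**Figure D4:**
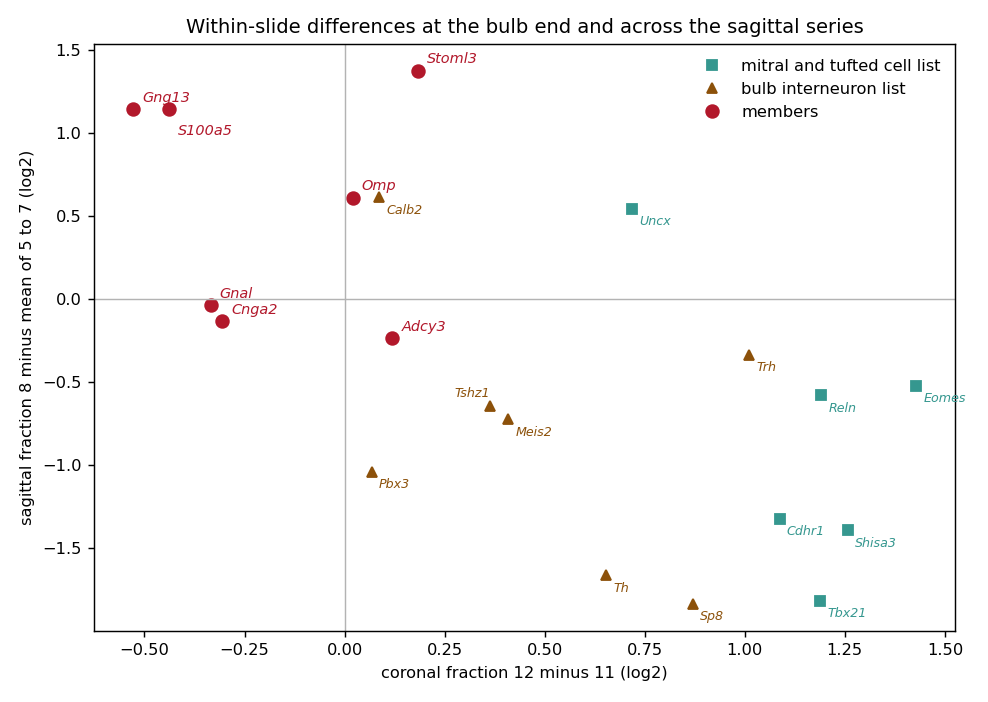
Difference of coronal fraction 12 from 11 (horizontal axis, log2) against the difference of sagittal fraction 8 from the mean of fractions 5 to 7 (vertical axis, log2), all on slide 3, for the 7 members, the 6 mitral and tufted cell genes and the 7 bulb interneuron genes, 1 point per gene. Omp, S100a5, Stoml3 and Gng13 lie at or above 0.61 on the vertical axis with steps between -0.53 and 0.18 on the horizontal, and most genes of both lists lie at the lower right.

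Gng13 and Stoml3 passed the F-test of a smooth curve over the sagittal fractions, with adjusted p of 0.0127 and 0.0138, where 14.7% of all probes passed. Gng13 was highest in fraction 1 at 8.91 and lowest in fraction 4 at 6.64, and its fitted curve had a range of 2.22 log2. Before scaling its signal was 65013 in fraction 1, the dimmest array, and 75418 in fraction 2, so the peak in fraction 1 appears only after scaling. Stoml3 had a fitted range of 4.55 log2 with the top of the curve in fraction 7, and 4 of its 10 readings were not well above background. S100a5 and Omp had fitted ranges of 3.69 and 3.26 log2 and adjusted p of 0.0755 and 0.113, and Gnal, Cnga2 and Adcy3 had 0.139, 0.285 and 0.880.

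Gng13 no longer passed the F-test when scaled to the array median (adjusted p 0.278, fitted range 1.70 log2) or by quantile normalization (0.240, fitted range 0.71 log2). Stoml3 kept its call under both (0.0332 and 0.0326). With normexp the fitted range of Stoml3 was 1.48 log2. Both calls were lost without fraction 1, with adjusted p of 0.139 for Gng13 and 0.106 for Stoml3, where no probe passed in limma though 5955 had an unadjusted p under 0.05. In a fit that added a term for the slide, Gng13 kept its call (0.0330) and Stoml3 did not (0.136), with a fitted range of 4.33 log2. Without fraction 1 the fitted range of Stoml3 was 4.82 log2 and that of Gng13 was 1.39. Within slide 3, over fractions 5 to 10 alone, no probe passed in limma and 2330 of 32364 had an unadjusted p under 0.05. The adjusted p of that F-test was 0.690 for Gng13 and 0.705 for Stoml3, with fitted ranges of 1.39 and 3.15 log2. Without fraction 9 and without fraction 10, 5 members passed in each case, Omp among them with adjusted p of 0.00581 and 0.0111 and S100a5 with 0.00910 and 0.0154, but the share of all probes that passed was then 38.8% and 47.1%.

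The members did not vary as 1 group. Over the 28 fractions Pearson's r was 0.97 between Omp and S100a5, 0.89 between Omp and Stoml3 and 0.89 between S100a5 and Stoml3, and it lay between -0.59 and 0.39 for the other 18 pairs. Stoml3 was well above background in 11 fractions, and over those its r was 0.95 with Omp, 0.94 with S100a5, 0.69 with Gng13, -0.67 with Adcy3 and -0.95 with Gnal. Over all 28 it was 0.18 with Gng13, -0.36 with Adcy3 and -0.30 with Gnal. With Gnal it was -0.56, 0.46 and 0.14 within the coronal, horizontal and sagittal series. The 11 fractions are those where Stoml3 was bright, so nothing is read from them alone. Within the sagittal series r was 0.97 between Omp and S100a5, 0.80 between Omp and Stoml3 and 0.84 between S100a5 and Stoml3. Gnal was negative with Omp in the coronal series (-0.69) and positive in the horizontal series (0.42). These correlations describe 28 arrays of 3 brains that share slides and scaling, and have no p-value.

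Outside the members, the 10 named genes most like Omp over the 28 fractions were Nmb (r 0.96), Doc2g (0.95), Alox12 (0.94), Fabp7 (0.94), Tbx21 (0.94), Klhl30 (0.92), Ms4a15 (0.91), Tubb6 (0.90), Myoz1 (0.90) and Nppa (0.90). Nmb encodes the peptide neuromedin B, Fabp7 a fatty acid binding protein of glia, Tbx21 a transcription factor of mitral and tufted cells and Nppa a natriuretic peptide precursor. Their differences from coronal fraction 9 to 12 ran from 4.51 log2 for Tubb6 to 10.17 for Ms4a15, and where fraction 9 was not well above background they were at least 556-fold for Ms4a15, 139-fold for Tbx21, 31.1-fold for Myoz1 and 20.3-fold for Alox12. Of the 10, Fabp7 was the exception in being higher in sagittal fraction 8 than in fractions 5 to 7 (0.51), as the 9 others read from -1.82 for Tbx21 to -0.11 for Myoz1. Nmb read 0.33, 5.79 and 6.38 in coronal fractions 9, 11 and 12, while Doc2g, like S100a5, was lower in fraction 12 (6.23) than in 11 (6.73).

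Omp had 41 probes with r over 0.85, S100a5 30 and Stoml3 20, Cnga2 27, Gng13 26, Gnal 3 and Adcy3 0, among at most 32363 compared. With members counted, S100a5 was most like Omp, Doc2g (0.96) and Nppa (0.95), and Stoml3 like Omp, Nmb (0.89) and S100a5. Gnal was most like St8sia3 (0.88), a sialyltransferase gene, Pde10a (0.86) and Pde7b (0.84), both cyclic nucleotide phosphodiesterases, of which Pde10a is abundant in the striatum. Gng13 was nearest to Ndufv3 (0.88), Vamp8 (0.86) and Ttc3 (0.85), Cnga2 to Lmod3 (0.93), AU040972 (0.91) and Ccdc85b (0.90), and Adcy3 to Norad (0.79), Snap47 (0.76) and Atp6v1h (0.69). Within the coronal series alone the 3 values of Cnga2 were 0.59, 0.05 and 0.24.

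The other genes of the transduction pathway mostly lacked the bulb-end difference of Omp. Of 12 listed, all of which passed the filter, 2 were over 1 log2 higher in coronal fraction 12 than in 9, 2 were over 1 log2 lower and the median was -0.56 log2, where 7.94% and 13.2% of all probes were higher and lower. Gng8, a G protein gamma subunit of immature sensory neurons, was higher by 2.90 and Pde1c, a phosphodiesterase of sensory cilia, by 2.01. The coronal peak of Gng8 lay in fraction 11 and that of Pde1c in fraction 2, away from the bulb. Ano2, the calcium-activated chloride channel of the cilia, was lower by 2.11 log2 (a difference of -2.11) and Slc24a4, a sodium-calcium exchanger, by 2.07 (-2.07). Cnga4, Cngb1 and Rtp1 are named here after their values were seen. Cnga4 and Cngb1, which encode the partners of Cnga2 in the channel, differed by -0.89 and -0.89, and Rtp1, a receptor-transporting protein, by -0.79 with fraction 12 not well above background. Of the 12, 2 passed the horizontal F-test and 2 the sagittal one, near the 15.8% and 14.7% of all probes.

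Transcription factors and axon molecules of these neurons were likewise mixed. Of 15, 3 were over 1 log2 higher and 2 over 1 log2 lower in fraction 12 than in 9, with a median of 0.24. Among all probes 7.94% were higher and 13.2% lower by that much. Ebf3, of the EBF family, was higher by 2.04 log2 and Plxna3, a semaphorin receptor subunit, by 1.28. Ebf3 had its coronal peak in fraction 1, away from the bulb, and its lowest level in fraction 9, while Plxna3 peaked in fraction 12. Kirrel2, an adhesion molecule of sensory axons, differed by -1.93 and Emx2, a homeodomain factor, by -1.65. Of the 15, 5 passed in the horizontal and 5 in the sagittal F-test, against 15.8% and 14.7% of all probes.

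Odorant receptors, the genes each sensory neuron chooses from, were mostly dim on these arrays. Of 1062 receptor symbols 117 passed the filter, and 518 were never well above background. Among the 117, 6 (5.13%) were over 1 log2 higher in fraction 12 than in 9, 25 were over 1 log2 lower and the median was -0.51, beside 7.94% higher and 13.2% lower among all probes. The median stayed between -0.52 and -0.13 under the 5 scalings. The number higher ran from 1 with normexp (3.50% of all probes) to 14 with quantile normalization (9.89% of all probes), and the number lower from 4 to 25, so no direction is read for the family. The number well above background was 84 in fraction 9, 67 in fraction 10, 39 in fraction 11 and 69 in fraction 12, while of all named genes 69.6%, 66.9%, 65.4% and 70.7% were. Well above background in fraction 11 or 12 but in no other coronal fraction were 18 receptors (1.69%), against 0.847% of all named genes, and none of them in both. Genes well above background in an earlier fraction cannot enter these counts. In coronal fraction 4 alone they were 8.76% of receptors and 73.0% of all named genes. The shares thus rest on unlike bases, and nothing is read from their difference.

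Olfr544, Olfr173 and Olfr1466 are named for the bright signal of their probes in fraction 12, which gives no order of expression between receptors. Olfr544 read 3.84 in fraction 9 and 3.44 in fraction 12, its lowest coronal level. Olfr173 and Olfr1466 were also at their lowest in fraction 12, at 1.10 and 1.03. Olfr649, Olfr978 and Olfr131 are named here after their values were seen, with no rank among receptors, since none was well above background in fraction 9. They were at least 6.61-fold, 3.14-fold and 2.03-fold higher in fraction 12 than in 9, and none of the 3 was well above background in fraction 11. No receptor had an r over 0.85 with Omp, the highest being 0.56 for Olfr345.

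Markers of the other cells of the nasal lining and of the bulb moved as follows beside the members. Of 6 sustentacular and gland genes, 1 was well above background in coronal fraction 11 and 2 in fraction 12, and Cyp2g1, Cyp1a2, Ugt2a1 and Obp2a were in neither. Their summed level was -1.49 and -1.58 in fractions 11 and 12, against -1.46 to -0.48 in fractions 1 to 10. Obp1a alone read -2.05 and -2.19 in fractions 11 and 12, and most other readings in that sum were not well above background. Obp1a, the member of that list that passed the filter, differed by -1.54 log2 between fractions 12 and 9. Scgb1c1 was at least 1.20-fold higher in fraction 12.

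The 3 olfactory basal cell genes reported here passed the filter, with 0 over 1 log2 higher in fraction 12 than in 9, 1 lower and a median of -0.38. By the same cut 7.94% of all probes were higher and 13.2% lower. Trp63 differed by -0.38 and Krt14 was well above background in neither fraction, while Krt5 was at least 2.61-fold lower in fraction 12. Among 4 immature neuron genes, Gng8 and Neurod1 were higher, by 2.90 and 1.28, Gap43 differed by -0.96 and Neurog1 was at least 7.58-fold lower, and the median of 0.16 ran from -0.18 to 0.50 under the 5 scalings. Neurod1 had its coronal peak in fraction 2, away from the bulb, and its lowest level in fraction 9.

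Ensheathing glia, which wrap sensory axons, had 2 of 6 genes over 1 log2 higher, Fabp7 by 5.37 and Frzb by 3.53, and Ngfr (-1.08) and Sox10 (0.65) had the smallest values. Over all probes the shares were 7.94% higher and 13.2% lower. Their summed level was 7.44 and 7.93 in fractions 11 and 12 against 4.63 to 5.92 before, a sum carried by Fabp7, which alone read 6.95 and 7.44. All 6 were higher in fraction 12 than in 11, as were 42.8% of all probes (31.7% to 64.0% under the 5 scalings). The part of any of these cells in the bulb-end levels of Omp, S100a5 and Stoml3 was not tested.

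Of the mitral and tufted cell genes, 5 of 6 were over 1 log2 higher in fraction 12, where 7.94% of all probes were. Their median was 6.67 log2 on the readings, 5.66 with the 4 genes that were not well above background in fraction 9 at their bounds, and 4.64 with normexp. Tbx21 and Eomes, transcription factors of these cells, were at least 139-fold and 242-fold higher. Uncx had the smallest difference, 0.18 log2, and Reln was at least 8.87-fold higher, a bound that gives it no rank. All 7 bulb interneuron genes were over 1 log2 higher, with a median of 4.29, from Calb2 (4.86) and Sp8 (4.77) to Pbx3 (2.46) and Meis2 (1.42). The coronal peak lay in fraction 11 or 12 for 5 of the 6 and 6 of the 7, for 4 of the 7 members and for 22.3% of all probes. Uncx and Calb2, the exceptions in these lists, peaked in fraction 2.

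At the same end the genes of the striatum, where Gnal is also known to be expressed, were over 1 log2 lower in 7 of 7, with a median of -3.37. Among all probes 13.2% were that much lower. Penk and Drd2 had the smallest differences, -1.38 and -2.89, and Tac1 and Drd1 the greatest, -4.64 and -4.39, beside -2.37 for Gnal. The 4 Purkinje cell genes had 1 higher and 2 lower, where 7.94% and 13.2% of all probes were higher and lower. Ppp1r17, with its coronal peak in fraction 2, was at least 5.88-fold higher and Calb1 at least 5.05-fold lower. Pcp2 differed by 0.29 log2 and Car8 by -1.59. The vomeronasal marker Trpc2 matched no probe by symbol and is not analysed here.

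**Figure D5:**
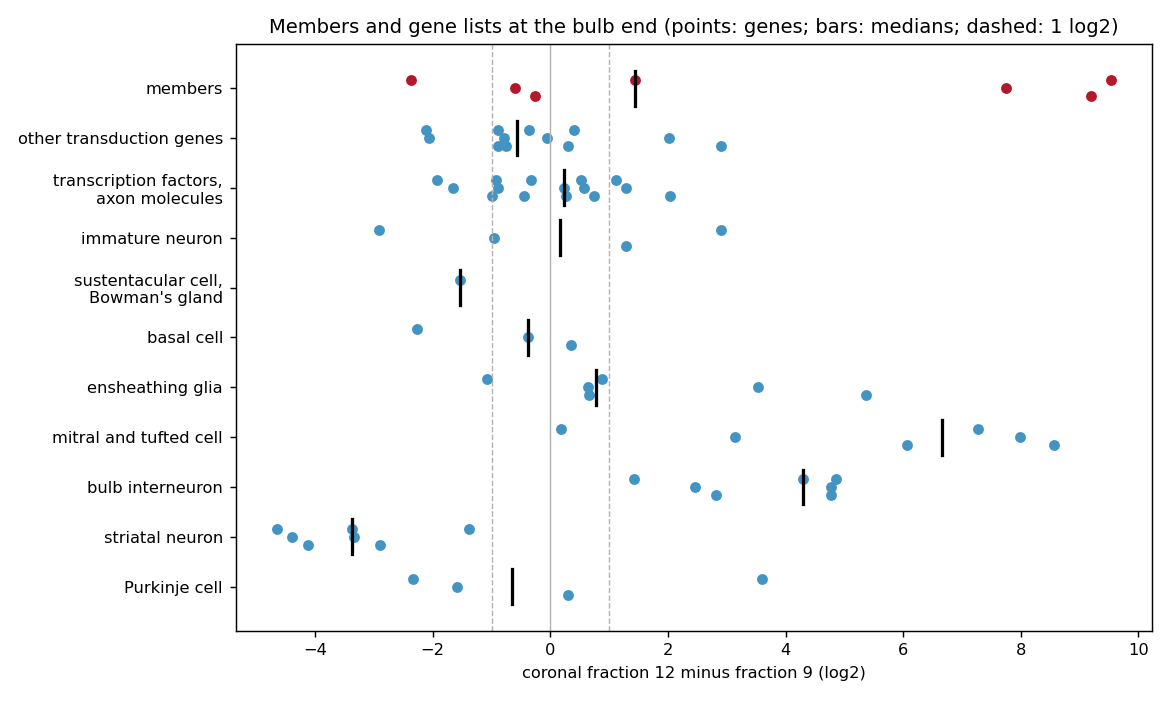
Difference of coronal fraction 12 from fraction 9 (log2) for the 7 members and for each gene of the lists that passed the filter, 1 point per gene, with bars for medians and dashed lines at 1 log2 either way. The members spread from -2.37 to 9.53, the other transduction genes centre on -0.56, and the mitral and tufted cell and bulb interneuron lists lie to the right with medians of 6.67 and 4.29, drawn from the readings as they stand.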

How the data were processed

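Transcriptome Tomography fractions of 3 mouse brains were measured on 28 1-colour arrays. The deposited intensity values came from Agilent Feature Extraction 10.5.1.1, as the scanner output states, with background already subtracted. The authors also deposited a log2 table of 44721 probes, whose single-spot values equalled the levels used here within 0.01 log2 after an offset per array. Spots with outlier flags were left out (108 to 176 per array), repeat spots averaged, and log2 of the signal was scaled to the 75th percentile of each array. A probe was kept if 1 or more fractions of every plane had it well above background, 32364 of 55681 after 62 with a missing value were dropped. RefSeq accessions named 27235 probes (48.9%), with GRCm38.p6 used for names and promoters, and the probe with the highest mean stood for a gene.

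The F-test of a natural spline of fraction number (2 degrees of freedom horizontal, 3 sagittal) was run in limma 3.58.1 (R 4.3.3) over all 32364 probes, Benjamini-Hochberg threshold 0.05, and was tested on simulated data. Tables were made in Python 3.11.15. A bound such as "at least 48.2-fold" sets the bright level against the dim reading or, where higher, the lowest level well above background on that array. The number of arrays, 1 per position, limits the precision.

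Alternatives were the array median, quantile normalization, normexp, the deposited log2 values, other measures of steepness, other filters and spline settings, the slide, and each fraction left out. The arrays hold no mean signal, so normexp (offset 50) used the median signal. 1 basal cell gene is not reported here. Members and lists were chosen with earlier results of these data known. Genes named were the members and the 2 largest and 2 smallest differences of each list, on the readings as they stand. Also named were the 10 genes most like Omp, 3 most like each other member, and the 3 receptors highest in coronal fraction 12. Some other genes are marked in the text as named after their values were seen. Sections per fraction are stated differently by the labels and the study, so positions are fraction numbers.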

Additional observations from a re-analysis of the deposited data

Results flagged for a closer look

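Gng13 in horizontal fraction 5 stood apart from the other 5 fractions of its series. Its level there was 5.78, against 6.75 to 7.18 in the others, and the gap to the nearest was 0.691 of the whole range, above Dixon's 95% critical value for 6 samples. It was the only such value among 14 member profiles tested in the horizontal and sagittal series. Chance gives about 5% per profile, so 1 such value among 14 would not be rare. That rate holds for draws from 1 population, whereas the fractions are different positions in 1 brain. The flag thus describes the gap alone. S100a5 was also at its lowest in that fraction, at -1.15.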

How the results depend on the processing

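The number of members over 1 log2 higher at the coronal bulb end was 4 under each alternative except the mean of fractions 11 and 12 against 9 and 10 (3) and the step from 11 to 12 alone (0), where the 4 of the step from 9 to 10 include Stoml3, not well above background in either fraction. Their median difference of 1.44 became 1.78 with the array median, 0.82 with means of fraction pairs, 1.36 from a slope, and, within slides, 1.78 from 9 to 10 and -0.31 from 11 to 12, a step that also turned S100a5 (-0.44), Gng13 (-0.53) and Adcy3 (from -0.60 to 0.12). The members passing the horizontal F-test, 0 with the 75th percentile, numbered 5 with the array median, 1 with quantile normalization and 1 with normexp. Among probes well above background in every horizontal fraction 2 of the 6 members tested passed, and 5692 of 24933 probes. With a horizontal fraction left out 0 to 3 members passed (3 without fraction 5). In the sagittal series 2 passed, 1 with the array median, 1 with quantile normalization, 5 with normexp, 1 with the slide term and 0 in fractions 5 to 10. With no filter on dim probes 3 passed, S100a5 among them, and 19184 of 55551 probes. Among probes well above background in every sagittal fraction 3 of the 5 members tested passed, with Omp and S100a5 among them, and 5585 of 22336 probes. With a fraction left out 0 to 5 members passed (0 without fraction 1, 5 without 9 or 10). Over all probes, the horizontal count of 5115 became 19347 with the array median, 6872 with quantile normalization, 9066 with normexp and 1 with 1 spline term fewer. It was 2213 without fraction 1, 3324 without fraction 2, 5754 without 5 and 1336 without 6. Without 3 or 4 it was 0 (10053 and 7679 at an unadjusted p under 0.05 in limma). The sagittal count of 4767 became 337 with the array median, 2627 with quantile normalization, 14295 with normexp, 19184 with no filter, 2520 with the slide term, 0 in fractions 5 to 10 or without fraction 1, and 2020 to 15244 with another fraction left out. The cause of these changes was not tested. No paired analysis was possible because fraction numbers mark positions along different axes and not replicates. Signal over background limits Stoml3 outside the bulb end and most odorant receptors.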
